A study of Equus caballus with 24 samples.

Results

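C1R, complement C1r protease, was described in sorted monocytes of allergic and healthy horses as 1 of 30371 genes listed in each count file, under the identifier ENSECAG00000021429. The gene was selected on measured values. Its identifier was chosen by the log2 fold change and adjusted p of DESeq2 between allergic and healthy horses in the “Remission Phase”, which were compared with the values the study prints for C1R. The study prints the change as FC, and it was read here as a log2 fold change, which was 2.96 with DESeq2. With the fold change rounded to a whole number and the adjusted p to 2 significant digits, as printed, 1 gene matched among 12656 genes with an adjusted p. Such a match rests on values and is no annotation, because no symbols stand beside the identifiers in the files. In the TB-T2T gene table given as reference, 0 identifiers were found, and its 1 C1R gene lies between the neighbours C1S and C1RL.

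C1r is a serine protease of the C1 complex, with which the classical complement pathway begins. Within this complex, C1q binds antibody on a target, C1r activates itself and cleaves C1s, and C1s then cleaves the next complement proteins. Liver cells make most complement proteins of the plasma, and monocytes and macrophages also make components of C1.

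The study asked how IgE-binding monocytes differ between allergic and healthy horses with and without exposure to allergen. These cells were enriched from blood by CD14 and sorted by flow cytometry as CD14 low, IgE+, MHCII high, CD16- and CD163- cells. Poly-A RNA of 24 samples was sequenced, and each horse gave 1 library in each of 2 phases. The files hold raw counts of reads on genes, without normalization.

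The 7 allergic horses had naturally occurring seasonal hypersensitivity to biting Culicoides midges, and the 5 healthy horses kept with them had no clinical allergy. All were adult Icelandic horses on the same pastures, with the same vaccines and deworming. The healthy horses were all mares, while the allergic group also held a gelding. The study left out further healthy horses that showed signs of allergy after its end. In the “Remission Phase” in winter there were no midges and no horse had clinical allergy, whereas in the “Clinical Phase” in late summer all horses were exposed and the allergic horses had chronic signs. Horses were not assigned to groups at random, and allergic horses were mostly older, so that age and allergy cannot be told apart. Season, sampling date and allergen exposure cannot be told apart between phases either. The sorted cell type was not checked here against marker genes, because identifiers were not paired with symbols. For the same reason, the other complement genes and all coagulation genes other than the F13A1-matched gene were not analysed. The study itself reports CD14, FCER1A and FCER1G at similar transcript levels in all horses.

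Library totals on genes ran from 17558184 to 40404429 counts in the “Remission Phase” and from 14493071 to 24832163 counts in the “Clinical Phase”. Horses are named by library code, with A for allergic and H for healthy. The “Remission Phase” library of A6 stood apart, with 11802 genes that had a count and a TMM normalization factor of 0.731, both the lowest of the 24 libraries. Values without A6 are given beside some of the results that include this library.

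C1R was higher in allergic than in healthy horses in the “Remission Phase”, the contrast that chose the gene, so that these levels are a description without a test. Among the 7 allergic horses, C1R ran from 1.07 CPM (counts scaled to a common library total) in A1 to 18.5 CPM in A7, with a median of 1.95 CPM. C1R in the healthy horses was 1.01 CPM in H1, 0.825 CPM in H2, 0.261 CPM in H4, 0.783 CPM in H6 and 0.707 CPM in H7. A7 was far above all other libraries of the phase, A6 and A3 came next, and the lowest allergic horse lay just above the highest healthy horse. Because the gene was chosen for this contrast, nothing is read from the fact that 7 of 7 allergic libraries were above every healthy library, as in 31 of 12670 genes (0.245%). DESeq2 called 34 genes in this phase, and 17 of them, or 0.134% of genes with an adjusted p, were higher in allergic horses. By the quasi-likelihood test of edgeR, 1 of 12670 genes was called. For C1R, the adjusted p was 0.0039 with DESeq2, which served to choose the gene, and 0.472 with edgeR, not called. Neither is read as a test of C1R, because these libraries chose it.

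In the “Remission Phase”, allergic horses had a mean level of 5.01 ± 6.20 CPM (SD, n = 7), against 0.718 ± 0.279 CPM (SD, n = 5) for healthy horses. The edgeR log2 fold change was 2.94 (SE 0.72), allergic over healthy. It was 2.19 without A7 and 2.81 without A6. C1R was a rare transcript in these libraries, with 8 to 35 counts in healthy and 25 to 489 counts in allergic horses in this phase. In bulk RNA, fewer cells that express the gene and less RNA per cell cannot be told apart.

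In the “Clinical Phase”, whose libraries did not choose the gene, the groups overlapped. Among the 7 allergic horses, C1R ran from 0.129 CPM in A2 to 13.8 CPM in A3, with a median of 2.98 CPM. C1R in the healthy horses was 2.29 CPM in H1, 0.829 CPM in H2, 1.36 CPM in H4, 0.414 CPM in H6 and 2.00 CPM in H7. A3 was far above the others, A1, A4, A6 and A7 lay above every healthy horse, and A2 and A5 lay among or below the healthy horses. Thus 5 of 7 allergic libraries were above every healthy library, and 203 of 13315 genes (1.52%) had at least that many.

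In the “Clinical Phase”, allergic horses had a mean level of 3.94 ± 4.54 CPM (SD, n = 7), against 1.38 ± 0.782 CPM (SD, n = 5) for healthy horses. The edgeR log2 fold change, allergic over healthy, was 1.53 (SE 0.75, 95% interval -0.07 to 3.12), with an unadjusted p of 0.0589 and a Benjamini-Hochberg adjusted p of 1.00 by the quasi-likelihood test of edgeR. The difference did not pass the test. By p, C1R was number 547 of 13315 genes, of which edgeR called 0 (0%), while 444 genes (3.33%) were below 0.05 by unadjusted p. With DESeq2, 9 genes were called, and C1R was not among them (log2 fold change 1.54, adjusted p 1.00).

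An exact permutation test over the 792 splits of the 12 “Clinical Phase” libraries was applied to log2(CPM + 4), the scale of the study. The mean was 2.84 ± 0.67 (SD, n = 7) for allergic horses, against 2.41 ± 0.21 (SD, n = 5) for healthy horses. The difference of 0.42 had a two-sided exact p of 0.212. Without A3 it was 0.20, with an exact p of 0.297. Without A2, which had 2 counts of C1R, it was 0.55, with an exact p of 0.0541. The smallest p this design allows is 0.00126. The size of the fitted difference rested largely on A3, since the edgeR log2 fold change was 0.74 (SE 0.64) without A3, against 1.29 to 1.79 with any other horse left out. Without A2 it was 1.74 (SE 0.63), also not called. With the horse as a block it was 0.96, and with sample quality weights it was 0.71, both with limma voom and not called. C1R also varied more between horses than most genes, with a biological coefficient of variation in edgeR of 0.824, against a median of 0.276 over all genes.

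**Figure D1:**
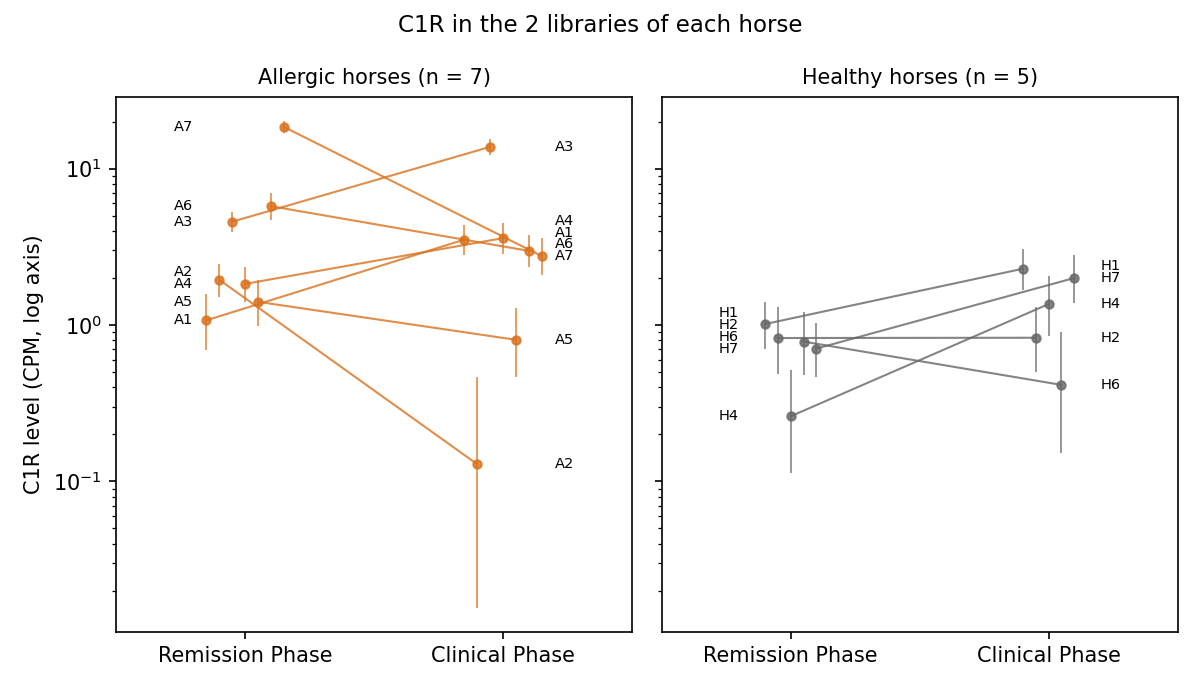
C1R level in CPM on a log axis in the “Remission Phase” and “Clinical Phase”, with the 2 libraries of a horse joined by a line, for 7 allergic and 5 healthy horses; bars are exact 95% Poisson intervals, which cover counting error only. The highest library is A7 at 18.5 CPM in the “Remission Phase” and A3 at 13.8 CPM in the “Clinical Phase”, and A2 has the lowest level at 0.129 CPM.

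**Figure D2:**
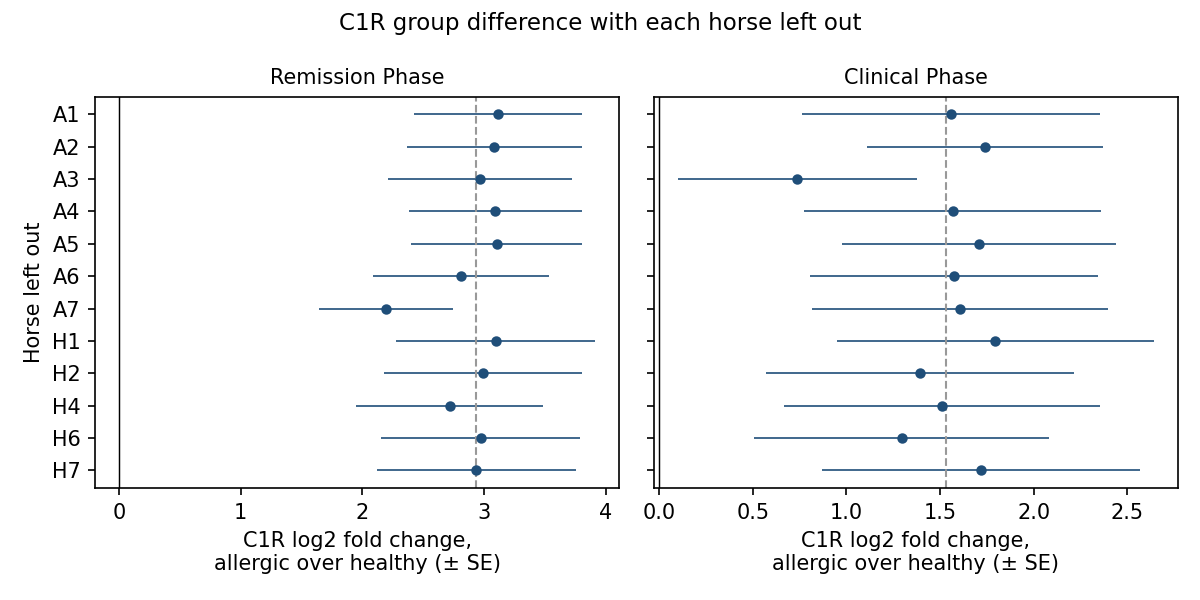
Log2 fold change of C1R in edgeR, allergic over healthy, with each of 12 horses left out in turn, in both phases; bars are the SE, and the dashed line marks the value with all horses. The “Clinical Phase” value is 0.74 without A3, and the “Remission Phase” value, from the contrast that chose the gene, is 2.19 without A7.

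By mean level, the order of the groups was allergic “Remission Phase”, allergic “Clinical Phase”, healthy “Clinical Phase” and healthy “Remission Phase”. By median, at 2.98 against 1.95 CPM, the allergic “Clinical Phase” came before the allergic “Remission Phase”. Each pair of neighbours in this order differed by less than the larger SD of the pair. Without A7, the mean of the allergic “Remission Phase” was 2.76 CPM, without A6 it was 4.89 CPM, and without A3 that of the allergic “Clinical Phase” was 2.30 CPM.

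The change of C1R between phases took opposite directions in different allergic horses. The ratio of “Clinical Phase” over “Remission Phase” CPM was 3.28 in A1, from 25 to 80 counts, 3.01 in A3, from 185 to 265 counts, and 1.96 in A4, from 59 to 79 counts. The ratio was 0.0662 in A2, from 67 to 2 counts, with an exact 95% counting interval of 0.00785 to 0.249. It was 0.149 in A7, from 489 to 54 counts, 0.518 in A6, from 101 to 74 counts, and 0.572 in A5, from 36 to 17 counts. Thus C1R was higher in the “Clinical Phase” in 3 of 7 allergic horses and lower in 3 of 7 by more than counting error, and the interval spanned 1 in A5. Such intervals compare the libraries of a horse, not the phases, and the ratios rest on the pairing of libraries by code.

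In healthy horses, C1R was higher in the “Clinical Phase” by more than counting error in 3 of 5 horses and lower by more than that in 0 of 5. The ratio was 2.26 in H1, 5.22 in H4 and 2.83 in H7, each with an interval above 1. It was 1.00 in H2 and 0.529 in H6, with intervals that spanned 1. On log2(CPM + 4), the mean change was -0.13 ± 0.91 (SD, n = 7) in allergic and 0.18 ± 0.22 (SD, n = 5) in healthy horses, both smaller than the SD. With each horse left out in turn, chosen after seeing the data, the mean ran from -0.33 without A3 to 0.14 without A7 in allergic horses, so that its sign rested on A7. Without A6 it was -0.07 ± 0.99 (SD, n = 6). In healthy horses it ran from 0.14 to 0.25. In the joint edgeR fit of the 24 libraries, the log2 fold change between phases was -0.35 (SE 0.64) in allergic and 1.05 (SE 0.82) in healthy horses. With the horse as a term, in a fit of each group added after seeing the data, it was -0.42 (SE 0.61) and 0.95 (SE 0.59). Without A6, the values in allergic horses were -0.19 (SE 0.71) in the joint fit and -0.17 (SE 0.56) with the horse as a term. These values are a description, since the “Remission Phase” libraries chose the gene, and the difference between the groups in this change was not tested.

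Among the 7 allergic horses, only A5 kept its place by C1R between phases. A3 was number 3 in the “Remission Phase” and number 1 in the “Clinical Phase”, and A5 was number 6 in both. A7, the highest of the 7 in the “Remission Phase”, was number 5 in the “Clinical Phase”, and A1, the lowest in the “Remission Phase”, was number 3. Over the 7 allergic horses, Pearson's r between a horse's libraries on log2(CPM + 4) was 0.189 (exact permutation p = 0.624) and Spearman's rho was -0.0357 (exact permutation p = 0.963). Adjusted over these 2 tests by Benjamini-Hochberg, both p were 0.963. Without A6 and A7, the horses farthest from the “Remission Phase” median, r was 0.776 over the remaining 5 horses, among which A3 was the highest in both phases. With each horse left out, Spearman's rho ran from -0.314 without A5 to 0.200 without A1, and was -0.257 without A3 and 0.0857 without A6. The r was 0.509 without A7 alone, 0.197 without A6 alone, 0.0840 without A2 and 0.0827 without A5.

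C1R was also compared with library measures within groups, in both phases, as TMM-normalized log2(CPM + 0.5). Library size and TMM factor are divisors in this C1R value, so that its r with the total and with the factor are not between independent measures. For the library total, the TMM factor and the number of genes with a count, 6 relations over 12 libraries each gave r from -0.433 to 0.330 and rho from -0.191 to 0.406. For rho, the 12 libraries were ranked together before group means were subtracted. The exact permutation p of r ran from 0.279 to 0.837 and that of rho from 0.195 to 0.952, with Benjamini-Hochberg adjusted p of r of 0.833 or more. Without the 2 libraries farthest from the median of each measure, r ran from -0.282 to 0.715. The highest of these was for the TMM factor in the “Remission Phase”, at -0.0938 with all libraries and 0.492 without A6. Whether composition of the libraries plays a part in the C1R levels was not tested further.

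To find genes that follow C1R, each gene was fitted in edgeR with group and the log2(CPM + 0.5) of C1R as terms, in each phase, so that the group contrast did not enter. At an adjusted p under 0.05, edgeR called 0 of 12669 genes (0%) in the “Remission Phase” and 0 of 13314 genes (0%) in the “Clinical Phase”, so that no gene was called in both. The lowest adjusted p was 0.0807 and 0.422. At an unadjusted p under 0.05 there were 1626 and 873 genes, and 132 of 12387 genes tested in both phases (1.07%) passed in both with the same sign, 108 with a positive and 24 with a negative slope. With limma voom, 1 and 0 genes were called.

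The count in the “Remission Phase” depended on single libraries. Without A7 edgeR called 1451 genes in that phase, without A3 it called 33, without H4 3 and without A4 2. In fits added after seeing the data, A7 was left out with each of the 11 other horses in turn, and the count ran from 0 to 3734. It was 0 with A6, A1, A2 or H7, 2 with H2, 4 with A4, 761 with A5, 942 with H6, 1303 with H1, 1766 with H4 and 3734 with A3. At an unadjusted p under 0.05, 564 genes were left without A7 and A6, against 3728 or more without A7 and any other horse. With log2(CPM + 4) of C1R as the term, 14 genes were called in the “Remission Phase”. In the “Clinical Phase”, edgeR called 0 genes with each single horse left out, with A6 and A7 left out and with log2(CPM + 4) as the term, and 873 had an unadjusted p under 0.05 with all libraries.

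The likeness of a gene to C1R was then described, without a test, by the correlation of log2(CPM + 0.5) after subtraction of group means, taken from the phase in which it was closer to 0. The likeness was set to 0 where the correlation had opposite signs in the phases. At 0.7 or more, 28 of 12387 genes (0.226%) followed C1R, and at -0.7 or less there were 0 genes (0%). In the “Remission Phase” alone 331 genes reached 0.7 and in the “Clinical Phase” alone 218, so that the 28 genes were 8.46% and 12.8% of these. The value just inside the limit was 0.702 and that just outside was 0.691. C1R itself was highest in A7 in the “Remission Phase” and in A3 in the “Clinical Phase”. Without A7, 47 genes reached the limit, 6 of them among the 28, and without A3 there were 15, 8 of them among the 28. Without A6 there were 40, 25 of them among the 28. With Spearman's rho there were 12, and only 2 of them were among the 28. The count at -0.7 or less also moved, to 20 without A7, 4 without A3, 3 without A6, 31 in allergic horses alone, 5 without subtraction of group means and 4 with Spearman's rho. With any other horse left out it was 0 to 3.

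**Figure D3:**
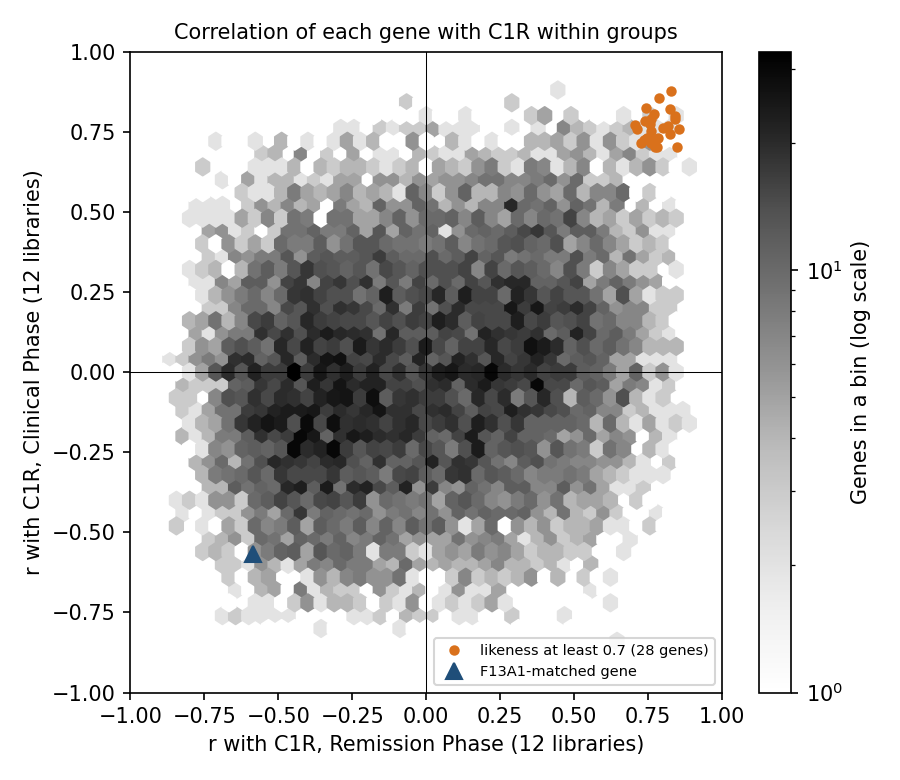
Correlation of each of 12387 genes with C1R after subtraction of group means, over 12 libraries of the “Remission Phase” (x axis) and 12 of the “Clinical Phase” (y axis); shading gives the number of genes in a bin on a log scale. Orange points are the 28 genes with r of at least 0.7 in both phases, and the triangle is the F13A1-matched gene at -0.587 and -0.568.

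The gene most like C1R, ENSECAG00000018272, was abundant in all 24 libraries. Its r with C1R was 0.826 for the “Remission Phase” and 0.877 for the “Clinical Phase”, over 12 libraries each. In the “Remission Phase” it ran from 159.5 to 800.5 CPM in allergic horses, with a median of 189 CPM, and from 152 to 198 CPM in healthy horses. A7 and A6 were above all others, as for C1R, but A3, the next highest for C1R, was at 168 CPM, below the healthy median of 189 CPM. In the “Clinical Phase” it ran from 167 CPM in A5 to 390.4 CPM in A3 in allergic horses, with a median of 312 CPM, and from 181 to 249 CPM in healthy horses. A3 was again the highest, and A5 and A2 were the lowest of the allergic horses for this gene as for C1R. Its likeness was 0.652 without A7, 0.805 without A6 and 0.657 with Spearman's rho, and its slope on C1R was not called by edgeR, with an adjusted p of 0.103 and 0.422.

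The next gene, ENSECAG00000007247, had few reads, with 0 to 189 counts. Its r was 0.823 and 0.821 in the phases. It reached 7.15 CPM in A7 in the “Remission Phase” and 2.86 CPM in A3 in the “Clinical Phase”, while the medians of the allergic horses were 0.429 and 0.322 CPM. The libraries with the highest C1R were thus also its highest. Its likeness was 0.555 without A7 and 0.815 without A6.

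The genes most opposite to C1R were ENSECAG00000020970, with r of -0.689 and -0.768 in the phases, and ENSECAG00000016248, with r of -0.786 and -0.679. Both had few reads, with 0 to 72 and 4 to 58 counts. The first was highest in A2 in both phases, at 2.09 CPM and 1.93 CPM, and A2 had the lowest C1R of all libraries in the “Clinical Phase”. Its likeness was -0.258 when group means were not subtracted, and -0.626 without A6. The second was lowest in A7 in the “Remission Phase”, at 0.151 CPM, and highest in A2 in the “Clinical Phase”, at 3.73 CPM. Its likeness was -0.323 without A2, -0.499 without A7 and -0.679 without A6. None of these genes had a slope on C1R called by edgeR in either phase.

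The F13A1-matched gene, ENSECAG00000008295, was matched by its “Remission Phase” values in the same way, so that its group difference there is also a description. F13A1 encodes the A chain of coagulation factor XIII, which cross-links fibrin. In the “Remission Phase” its mean was 31.5 ± 33.1 CPM (SD, n = 7) for allergic horses, against 1.57 ± 0.569 CPM (SD, n = 5) for healthy horses. In the “Clinical Phase” its mean was 23.3 ± 17.5 CPM (SD, n = 7), against 1.89 ± 0.537 CPM (SD, n = 5). Its log2 fold change in that phase was 3.62 (SE 0.59), not called by the quasi-likelihood test of edgeR (adjusted p 0.0969). The study, with DESeq2, reports F13A1 as significantly higher in allergic horses in that phase. By likeness within groups it was number 37 from the lowest of 12387 genes. This place was not stable, at number 1257 without A3, 293 without A7, 116 without A6, 301 with Spearman's rho and 3907 without subtraction of group means. With any other horse left out it was number 24 to 95. Without subtraction of group means, its r had opposite signs in the phases, so that its likeness was set to 0, a value shared by all such genes. A4, A2 and A5, with 90.0, 53.2 and 48.6 CPM of this gene in the “Remission Phase”, had less C1R than A3, A6 and A7, in which it was at 6.73, 5.52 and 8.02 CPM. A1 was low for both genes in that phase. In the “Clinical Phase”, A3 and A1 had the least of this gene, at 3.12 and 4.79 CPM, and were number 1 and 3 for C1R. A2 and A5, at 31.5 and 27.3 CPM, were number 7 and 6 for C1R. A4, however, had the most of this gene, at 54.8 CPM, and was number 2 for C1R. A6 and A7 lay in between for both genes.

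Over the 12 libraries of the “Remission Phase”, r between the genes within groups was -0.587 (permutation p = 0.161) and rho was -0.211 (permutation p = 0.574). In the “Clinical Phase”, r was -0.568 (permutation p = 0.138) and rho was -0.328 (permutation p = 0.380). Neither passed the test, and the Benjamini-Hochberg adjusted p over these 2 values of r was 0.161 in both. For both values of rho, the 12 libraries were ranked together before group means were subtracted. With ranks taken after the subtraction, as for the likeness, rho was -0.413 in the phase where it was weaker, and this was not tested. Without the 2 libraries with the most extreme C1R, r was -0.807 for the “Remission Phase” and -0.0579 for the “Clinical Phase”, so that the latter rested on A2 and A3. Without A3 alone, the “Clinical Phase” r was -0.218, and without A6 alone the “Remission Phase” r was -0.526. In the 7 allergic horses alone, r was -0.628 (exact permutation p = 0.149) and -0.669 (exact permutation p = 0.103). Without subtraction of group means, r was 0.322 for the “Remission Phase” and -0.0288 for the “Clinical Phase”, where the difference between groups enters.

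**Figure D4:**
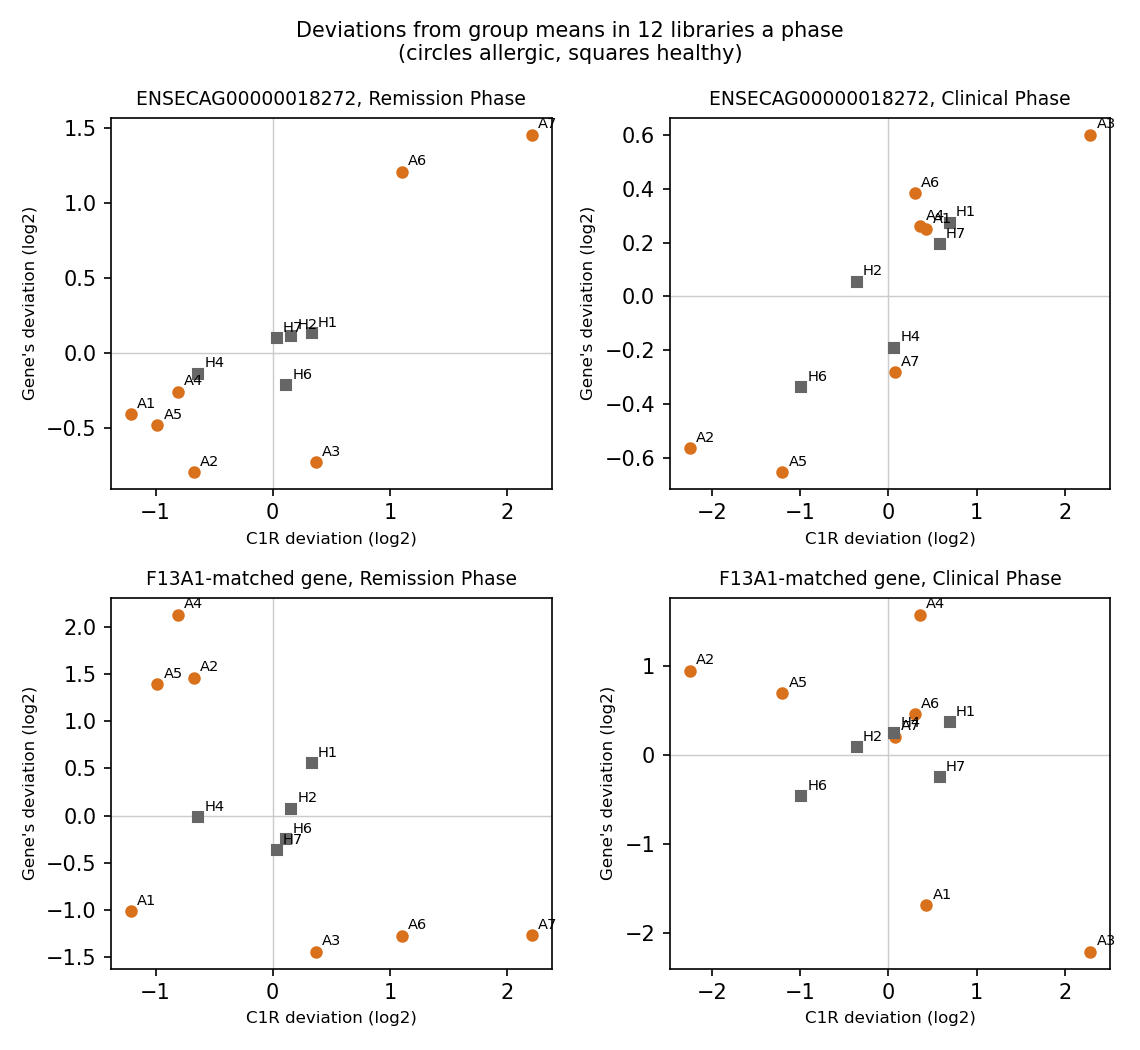
Deviations of log2(CPM + 0.5) from the group mean for C1R on the x axis and, on the y axis, for ENSECAG00000018272 in the upper row and the F13A1-matched gene in the lower row, in 12 libraries a phase; circles are allergic and squares healthy horses. The upper row rises with C1R, at r of 0.826 and 0.877, and the lower row falls, at r of -0.587 and -0.568.

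Of the 28 genes that followed C1R, 26 were higher in allergic horses in each phase, with a median log2 fold change of 0.75 for the “Remission Phase” and 0.33 for the “Clinical Phase”. Over all genes, 49.4% and 52.8% were higher, with medians of -0.00 and 0.01. The “Remission Phase” libraries are those that chose C1R. The 28 genes were chosen by their correlation with C1R on the libraries of both phases, so that these counts are a description without a test. The “Clinical Phase” count was not repeated without A3, the horse with the highest C1R in that phase. Without A7, the allergic horse with the highest C1R, the median was 0.35 over the 27 genes kept in the “Remission Phase”, of which 24 were higher. In edgeR, 0 of the 28 genes were called in the “Remission Phase”, where 1 gene (0.00789%) was called in all, and 0 in the “Clinical Phase” (0% of all genes). At an unadjusted p under 0.05 there were 15 of the 28 in the “Remission Phase”, against 10.0% of all genes, and 1 of the 28 in the “Clinical Phase”, against 3.33%. Without A7 there were 4 of 27, against 12.9% of all genes, and 4 of 28, against 4.23%. Without A6, 25 of the 28 were higher in the “Remission Phase”, with a median of 0.57, and 8 had an unadjusted p under 0.05, against 13.1% of all genes.

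Between phases, 3 of the 28 genes were higher in the “Clinical Phase” in allergic horses, with a median log2 fold change of -0.25, and 23 of the 28 in healthy horses, with a median of 0.14. Over all 13597 genes, 49.4% and 52.4% were higher, with medians of -0.00 and 0.02. In the joint edgeR fit, 0 of the 28 genes were called in allergic horses, where 1325 genes (9.74%) were called, and 0 in healthy horses, where 182 genes (1.34%) were called. At an unadjusted p under 0.05 there were 4 of the 28 genes in allergic horses, against 26.8% of all genes, and 1 in healthy horses, against 15.6%. With the horse as a term, 0 of the 28 were again called, where edgeR called 240 genes (1.77%) in allergic and 640 genes (4.71%) in healthy horses. At an unadjusted p under 0.05 there were then 0 of the 28 in allergic horses, against 19.3% of all genes. In healthy horses there were 6 higher and 1 lower, against 22.7%. The horse term also changed the number of the 28 that were higher in allergic horses, to 5, and left it at 23 in healthy horses. Without A6, the number in allergic horses was 8 in the joint fit, with a median of -0.13. With the horse as a term it was 17, with a median of 0.01, so that the direction in allergic horses was not kept. The counts over all genes also moved without A6, to 561 called genes (4.13%) in the joint fit and 988 (7.27%) with the horse as a term. At an unadjusted p under 0.05 there were then 0 of the 28 in the joint fit, against 19.2% of all genes. With the horse as a term there was 1 of the 28, against 20.5%. The phase comparisons share the libraries on which the 28 genes were chosen.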

How the data were processed

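The values were raw counts of reads per gene, which the authors deposited for each of 24 libraries. Per the labels and the study's methods, poly-A selected, directional, single-end libraries were trimmed with Trim Galore 0.6.0 and mapped to EquCab3.0 with STAR 2.7.0e. How reads were counted, with or without strand, and on which annotation release is not given in the sources used, so overlapping genes or near-identical copies could share reads with C1R. The members and lists were chosen with earlier results of these data known.

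A gene entered a fit when 1 library or more reached 0.5 CPM. Groups were compared within a phase with edgeR 4.0.16 (quasi-likelihood test, TMM, Benjamini-Hochberg adjustment over all kept genes, adjusted p under 0.05) in R 4.3.3. DESeq2 1.42.0 and limma 3.58.1 gave alternatives. Single values were compared by exact permutation tests, and relations within groups by all permutations within each group, with Python 3.11.15, numpy 2.4.6, scipy 1.17.1 and pandas 2.3.3. Figures used matplotlib 3.10.9. Tests were two-sided. CPM used total counts, and correlations with other genes and with library measures used TMM-normalized log2(CPM + 0.5). Intervals of levels and ratios are exact 95% intervals and cover counting error only. By rule, the text names C1R, the F13A1-matched gene and the 2 genes with the highest and the 2 with the lowest likeness to C1R. Lists of complement, coagulation and cell type marker genes were not analysed, since they need symbols.

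The library codes pair the samples by horse. They come with the count files, while the sample titles carry another numbering. After subtraction of group means, libraries of the same horse correlated at a mean of 0.226 over 13597 genes and libraries of different horses at -0.0205, and 9 of 12 horses exceeded 0.1. The lowest value of a horse was -0.146. The fits were tested on simulated counts, and 0 pairs of libraries held identical counts. Alternatives were DESeq2, RLE factors, other filters, voom, a joint fit, the horse as a block, other pseudocounts, TMM-normalized CPM, rank correlation, allergic horses alone and leaving out each horse.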

Additional observations from a re-analysis of the deposited data

Results flagged for a closer look

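In 24 sets of libraries, 6 genes in each of 4 groups, the gap of the highest or lowest library to its nearest neighbour was compared with Dixon's 95% limit, and 6 sets held a library far from the others. Chance flags about 1 in 20 groups, but that share cannot be set against these 6, because C1R and the F13A1-matched gene were chosen on “Remission Phase” values and the other 4 genes for their correlation with C1R. For C1R, these were A7 at 18.5 CPM in the “Remission Phase”, next to 5.75 CPM, and A3 at 13.8 CPM in the “Clinical Phase”, next to 3.59 CPM. For ENSECAG00000007247 they were the same libraries, A7 at 7.15 CPM and A3 at 2.86 CPM. For ENSECAG00000016248, A2 stood apart at 3.73 CPM in the “Clinical Phase”. For ENSECAG00000020970, H4 stood apart among the healthy horses at 0.587 CPM in the “Remission Phase”, from 18 counts.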

How the results depend on the processing

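The “Clinical Phase” difference of C1R kept its direction and stayed uncalled in every alternative, and its log2 fold change ran from 0.74 to 1.79 with each horse left out. With the horse as a replicate block it was 0.96, not called, and the block was run for no other comparison of groups. With no filter on low counts the edgeR adjusted p was 0.809, and over the other alternatives 0.998 or more. The exact test stayed above 0.05, with p from 0.0541 without A2 to 0.394 without H6. The r between a horse's libraries ran from 0.0827 to 0.509. For the F13A1-matched gene, alternatives were chosen after seeing the data, and with each horse left out r ran from -0.797 to -0.524 in the “Remission Phase” and from -0.711 to -0.218 in the “Clinical Phase”. The count of genes called by slope in both phases was 0 in all alternatives, and so was that of the 28 followers called between phases with the horse as a replicate block.

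The number of genes with a likeness of 0.7 or more was 28. It was 12 with Spearman's rho, 2 of them among the 28, 37 with log2(CPM + 4), 20 of them shared, and 79 in allergic horses alone, 27 of them shared. With each horse left out it ran from 15 to 47. The mean change between phases in healthy horses was 0.42 on log2(CPM + 1), against 0.18 on log2(CPM + 4). In allergic horses it was -0.24 against -0.13, and the difference in the exact test was 0.70 against 0.42. The smaller pseudocount compresses low levels less. Depth limits C1R most where it had few counts, as with 2 counts in A2 and 6 in H6 in the “Clinical Phase”.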
